A study of Homo sapiens with 12 samples.

Results

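The genes described here are ATF4 and the genes it controls in the integrated stress response (ISR), measured as mRNA in HK2 cells kept in normal or high glucose with FGF9 silenced or overexpressed. The members were taken from a list of 43 symbols, namely ATF4 with other transcription factors of the response, its feedback and effector genes, enzymes of amino acid synthesis, amino acid transporters, aminoacyl-tRNA synthetases with a tRNA export factor, and 3 secreted or surface proteins. All 43 symbols were matched to one Ensembl identifier each, out of 62703 identifiers in the deposited tables. All 43 passed the filter on low values. The list is defined by function and its rule uses no measured value, but it was drawn up with earlier results of these data known.

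HK2 is an immortalised cell line from the epithelium of the human renal proximal tubule. Its RNA was sequenced as 12 libraries, with 3 for each of 4 groups. NG cells received a control vector in medium with 5.5 mM glucose, HG cells were exposed to 50 mM glucose, si-FGF9 cells were transfected with an siRNA against FGF9 in the 5.5 mM medium, and HG+OE-FGF9 cells received a lentivirus vector for FGF9 in 50 mM glucose. The labels name no vector for HG and no non-targeting siRNA, so that si-FGF9 against NG holds any effect of the siRNA transfection and HG+OE-FGF9 against HG any effect of the vector. The results text of the paper differs from the labels and methods in that it names a mannitol medium for NG and an adenovirus, not a lentivirus, as the FGF9 vector, and which was used is not resolved here. The labels do not say whether the libraries of a group came from separate cultures, so that p measure the spread between these libraries only.

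The ISR is a shared answer of cells to amino acid shortage, unfolded protein in the endoplasmic reticulum, viral RNA and lack of haem. Kinases that sense these conditions phosphorylate the initiation factor eIF2, which lowers protein synthesis in general while the mRNA of ATF4 is translated better. ATF4 then binds, with C/EBP partners, to the genes of amino acid synthesis, uptake and tRNA charging, and in kidney tubules the response is known from stress of the endoplasmic reticulum.

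The values are TPM (transcripts per 1000000 transcripts), tested with limma as log2(TPM + 1) for the 14639 genes that reached 1 TPM in at least 3 libraries. A differentially expressed gene (DEG) met the criteria of the paper. These are a log2 fold change (log2FC) of 1 or more, up or down, and p under 0.01 before adjustment. The words rose and fell are kept for DEGs. Adjusted p are from limma with Benjamini-Hochberg adjustment over all genes tested. Because 1 is added to each TPM, the log2FC of a gene with few TPM is smaller than its true change. TPM keep no depth, so that the counting error of each library is unknown.

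Where FGF9 was overexpressed in high glucose, a minority of the ISR genes rose with the TPM as deposited. They were 3 of the 6 amino acid transporters, 3 of the 8 members of the transcription factor group and 2 of the 3 secreted and surface proteins. To these came 1 of the 4 feedback and effector genes and, of the enzymes of amino acid synthesis, ASNS alone. When HG+OE-FGF9 was compared with HG, 10 of the 43 members rose (GDF15, ATF3, NUPR1, ASNS, SLC3A2, SLC7A5, SESN2, TRIB3, SLC7A11 and STC2) and 2 fell (SLC38A2 and VLDLR). Over all genes tested in this comparison, 5.61% were DEGs, 2.94% higher and 2.67% lower, against 27.9%, 23.3% and 4.65% of the members. The median log2FC was 0.53 over the members and -0.13 over all genes. An adjusted p under 0.05 was reached by 19 members, and by 9.53% of all genes.

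With the TPM as deposited, no member rose in HG or si-FGF9 against NG. In HG against NG, 7 members fell (ATF3, XPOT, ALDH1L2, SLC38A2, NARS1, STC2 and VLDLR). Over all genes 24.4% were DEGs here, 1.65% higher and 22.7% lower, and the members, with 16.3% lower, did not exceed this background. In si-FGF9 against NG, 15 members fell, which are 34.9% of them, against 42.2% lower, 5.36% higher and 47.6% in all among all genes tested. The median log2FC of the members was -0.36 in HG and -0.73 in si-FGF9, beside -0.39 and -0.79 over all genes. An adjusted p under 0.05 was reached by 16 and 25 members, and by 49% and 69.3% of all genes. HG against NG and si-FGF9 against NG use the same NG libraries, and HG against NG and HG+OE-FGF9 against HG the same HG libraries, so that their values stand side by side and not as separate support.

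In the 2 comparisons with NG, genes of lower GC content tended to have lower log2FCs. Whether GC content or the scaling of the TPM set the direction was not tested. Over 14191 genes, Spearman's rho between GC content and log2FC was 0.64 in HG against NG, 0.57 in si-FGF9 against NG and 0.29 in HG+OE-FGF9 against HG, a description across genes that share the same libraries. The members range in GC content from 35.4% to 66.2%, and the 7 that fell in HG from 38.1% to 51.7%. After the trend with GC content had been taken out of each library (GC correction), 3 members fell in HG (STC2, ATF3 and GDF15), against 3.06% lower and 3.78% higher among all genes. In si-FGF9, 7 fell (ATF3, SLC38A2, XPOT, VLDLR, NARS1, JDP2 and STC2) and ASNS rose, against 12% lower and 12.3% higher. In HG+OE-FGF9 against HG, 11 rose and 2 fell with the correction, against 3.03% and 2.18%, and these 13 hold all 12 DEGs named above and CTH. Other scalings also moved the split. In si-FGF9 against NG, scaling by the median of ratios gave 7 members higher and 6 lower, beside 19.2% and 17.5% of all genes, and quantile normalization 1 and 7, beside 16.2% and 17.1%. For HG against NG the counts were 0 higher and 4 lower with the median of ratios (7.43% and 8.27% of all genes) and 0 and 7 with quantile normalization (6.94% and 8.33%). In HG+OE-FGF9 against HG they were 13 and 2 (3.64% and 1.78% of all genes) and 11 and 2 (3.33% and 2.17%), with all 12 DEGs among them each time. The GC content of the 10 genes that rose ran from 35.4% in SLC7A11 to 62.9% in GDF15.

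**Figure D1:**
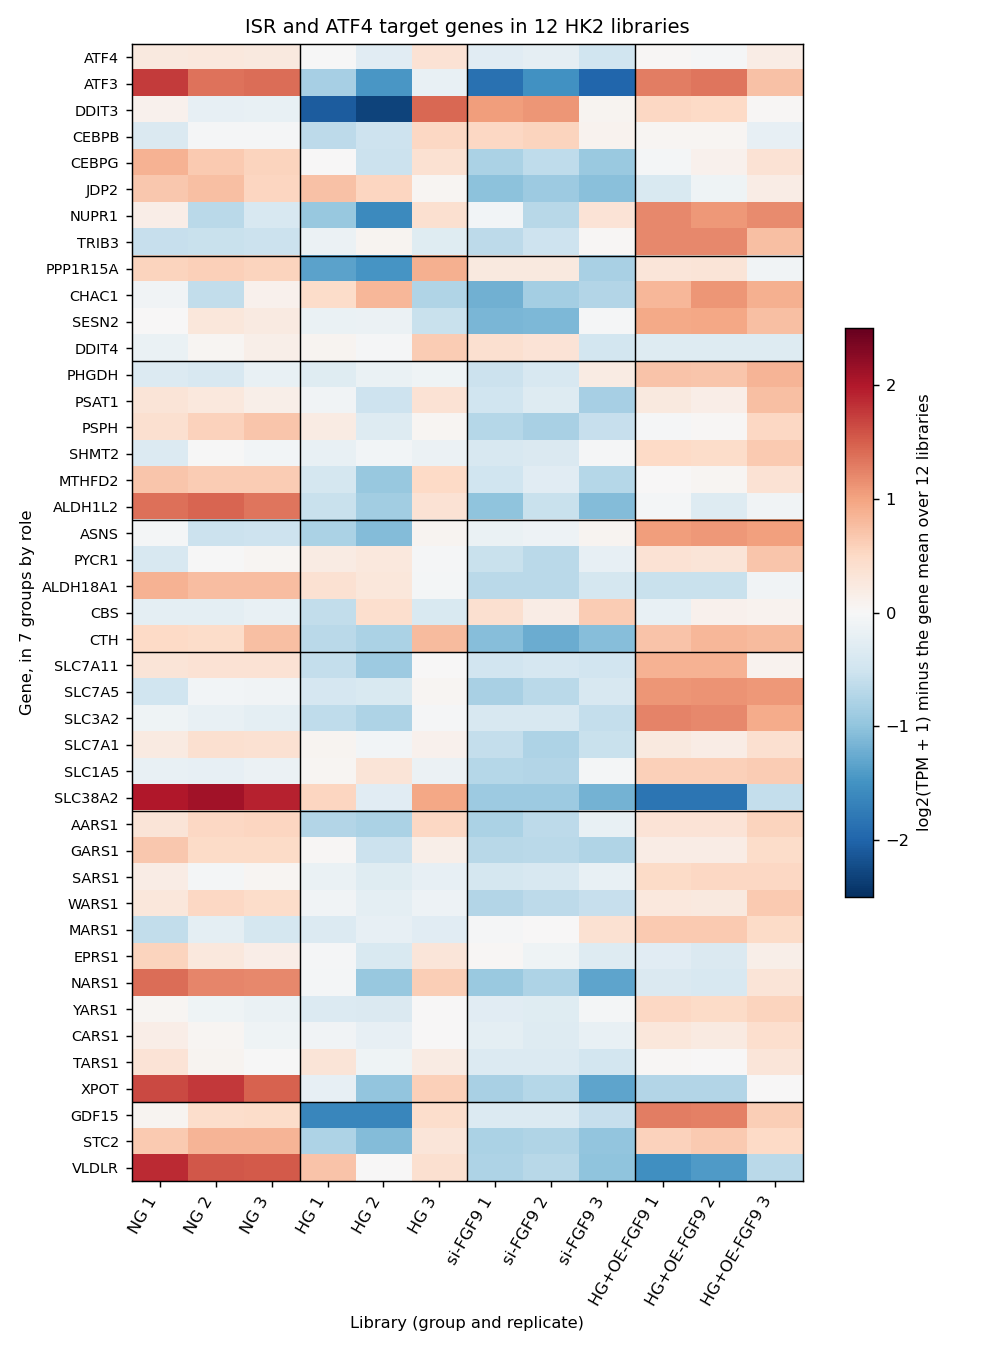
Level of the 43 ISR and ATF4 target genes in each of the 12 libraries, as log2(TPM + 1) minus the mean of the gene over the libraries (colour), with genes in rows by role and libraries in columns by group. ASNS, SLC3A2 and SLC7A5 are highest in the 3 HG+OE-FGF9 libraries, SLC38A2, XPOT and VLDLR in the 3 NG libraries, and HG replicate 3 is apart from HG replicates 1 and 2 for DDIT3 and PPP1R15A.

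The medians by library restate the same TPM and are no separate support. Each gene is centred on its mean over the 12 libraries, so that a higher group makes the others lower. The median deviation of the members from their own means, in log2(TPM + 1), was 0.30, 0.32 and 0.48 in the HG+OE-FGF9 libraries, where that of all genes was -0.21, -0.21 and 0.07. In NG it was 0.24, 0.26 and 0.22 for the members and 0.45, 0.42 and 0.40 for all genes. The si-FGF9 libraries had -0.55, -0.55 and -0.48 for the members and -0.40, -0.35 and -0.43 for all genes. In the HG libraries the members had -0.17, -0.36 and 0.11, and all genes 0.07, -0.16 and 0.10.

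Facts of the libraries bear on these values. The number of genes that reached 1 TPM was 11549 to 13949 by library. FGF9 was listed at 0 in all 9 libraries outside HG+OE-FGF9, si-FGF9 included, and at 3.34, 4.03 and 3.82 TPM in HG+OE-FGF9. The spread of the log2 difference between libraries of a group, over 2377 genes with at least 20 TPM in all libraries, was 0.08 between HG+OE-FGF9 replicates 1 and 2 and 0.101 between NG replicates 2 and 3, and reached 0.723 between HG replicates 2 and 3. HG replicate 3 was the highest library of its group in 28 of the 43 members and over 2 times both others in 10 of them. Small nuclear and nucleolar RNAs summed to 5275.4 to 16630 TPM in HG+OE-FGF9 and to 206.8 to 832.8 in the 9 others, and mitochondrial transcripts to 49385 to 85968 TPM in si-FGF9 and 113127 to 155574 elsewhere. The part of these differences in the results was not tested.

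The cell line was checked against its markers. The keratin genes KRT8, KRT18 and KRT19 had at least 211 TPM in every library. PAX8, a transcription factor of renal epithelium, had at least 19.7, but its level differed between groups. The mean TPM of PAX8 was, for NG 78.5, for HG 64.1, for si-FGF9 39.5 and for HG+OE-FGF9 26.3. That of EPCAM was, for NG 24.0, for HG 10.85, for si-FGF9 6.63 and for HG+OE-FGF9 6.31. PAX2 and CDH16 were low, at 0.46 to 2.01 and 1.12 to 4.72 TPM. Of the proximal tubule markers only GGT1 was abundant, at 71.7 to 195 TPM, with AQP1 at 0.47 to 2.34 and SLC5A2 at 0.16 to 3.01. CUBN, LRP2, SLC34A1, ANPEP and SLC22A6 did not exceed 0.26 in any library, and the epithelial marker CDH1 did not exceed 0.28. The sum of 5 fibroblast markers was 62.24 to 89.16 TPM in NG, 17.11 to 40.85 in HG, 11.62 to 20.97 in si-FGF9 and 11.52 to 22.41 in HG+OE-FGF9, nearly all of it LUM, with PDGFRA at 0.02 or less. The 4 endothelial markers summed to 0.15 or less, and of the 4 leukocyte markers PTPRC and CD3E did not exceed 0.07 while CD68 was at 108 to 159 TPM. In such bulk samples, fewer cells of a type and less RNA per cell cannot be told apart.

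The promoters of the members were searched for the letters of the C/EBP-ATF response element, TGATGNAA, to which ATF4 binds with a C/EBP partner, on both strands of the window from 250 bases before to 50 after each start site in RefSeq on GRCh38.p14. Of 36 members with such a window, 14 (38.9%) held the letters, against 4.46% of 27305 genes with a window and 11.1% of 45 other pathway genes. By windows these shares were 24.6% of 57 and 3.62% of 35116. The letters of the cAMP response element, TGACGTCA, which begins with the same 3 letters, were in 1 member (2.78%), PPP1R15A, against 2.25% of genes. A match is a description of letters and not a bound site. The members were listed as targets of ATF4, so that a larger share among them is no independent result. The windows of 4 members that were DEGs in at least 1 comparison are shown to place the letters, which are in capitals, and each sequence is written in the direction of its gene:

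ATF3, chr1:212565157-212565456: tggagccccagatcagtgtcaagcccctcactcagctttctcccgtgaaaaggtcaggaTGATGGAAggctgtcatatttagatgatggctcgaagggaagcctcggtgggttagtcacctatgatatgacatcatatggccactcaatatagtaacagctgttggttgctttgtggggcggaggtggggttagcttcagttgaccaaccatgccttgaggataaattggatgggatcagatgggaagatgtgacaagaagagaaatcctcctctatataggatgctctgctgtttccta

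ASNS, chr7:97872359-97872658: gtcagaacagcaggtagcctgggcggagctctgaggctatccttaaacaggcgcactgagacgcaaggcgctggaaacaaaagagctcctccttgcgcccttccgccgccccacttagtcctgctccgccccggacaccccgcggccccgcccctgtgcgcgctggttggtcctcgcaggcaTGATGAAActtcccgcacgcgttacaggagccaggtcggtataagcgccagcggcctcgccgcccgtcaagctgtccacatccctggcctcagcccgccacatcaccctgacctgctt

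SLC3A2, chr11:62881449-62881748: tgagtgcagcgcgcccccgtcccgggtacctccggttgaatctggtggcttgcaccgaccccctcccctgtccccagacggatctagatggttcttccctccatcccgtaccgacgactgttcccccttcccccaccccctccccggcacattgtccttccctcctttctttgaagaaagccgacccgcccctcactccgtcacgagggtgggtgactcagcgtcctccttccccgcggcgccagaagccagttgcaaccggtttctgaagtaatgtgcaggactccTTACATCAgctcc

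JDP2, chr14:75427772-75428071: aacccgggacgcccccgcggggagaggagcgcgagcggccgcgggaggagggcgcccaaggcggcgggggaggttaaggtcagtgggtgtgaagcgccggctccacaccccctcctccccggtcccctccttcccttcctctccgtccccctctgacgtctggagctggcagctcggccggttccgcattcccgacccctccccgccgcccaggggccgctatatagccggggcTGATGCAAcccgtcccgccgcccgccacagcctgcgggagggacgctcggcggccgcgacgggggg

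ASNS lies on the minus strand and the other 3 on the plus strand. The first letter of the match is at position 60 of the window in ATF3, 183 in ASNS, 288 in SLC3A2 and 235 in JDP2, counted from 1. In SLC3A2 the match is read on the other strand, so that the capitals show it as TTACATCA, and it is within the 50 bases after the start. Other windows of these genes, at other start sites, are not shown. The median log2FC in HG+OE-FGF9 against HG was 0.47 over the 14 with them, 3 of which rose, and 0.51 over the 22 without, 5 of which rose and 2 fell.

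ATF4 (ENSG00000128272, chromosome 22, 39519695 to 39522685, coordinates of GENCODE release 29 on GRCh38, as for the genes that follow) is the factor that gives the response its output. Its TPM was 307, 311 and 309 in the NG libraries, 259, 213 and 335 in the HG libraries, 215, 224 and 184 in the si-FGF9 libraries and 264, 255 and 298 in the HG+OE-FGF9 libraries. The si-FGF9 libraries were below all NG libraries, and the HG+OE-FGF9 libraries lay within the range of the HG libraries. The log2FC was -0.22 (standard error 0.16, limma adjusted p = 0.256) in HG against NG, -0.58 (standard error 0.16, limma adjusted p = 0.00551) in si-FGF9 against NG and 0.04 (standard error 0.16, limma adjusted p = 0.886) in HG+OE-FGF9 against HG. ATF4 was thus no DEG in any comparison, at the level of mRNA. Its protein, which is set mainly by translation, was not measured in these libraries.

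ATF3, a stress-induced repressor of the same leucine zipper family, had the largest changes among the members in both comparisons with NG. ATF3 (ENSG00000162772, chromosome 1, 212565334 to 212620777) was at 85.5, 64.5 and 66.00 TPM in the NG libraries, 13.3, 8.29 and 21.6 in the HG libraries, 6.04, 7.91 and 5.45 in the si-FGF9 libraries and 61.3, 63.5 and 41.6 in the HG+OE-FGF9 libraries. No library of HG or si-FGF9 reached the level of any NG or HG+OE-FGF9 library. The log2FC was -2.33 (standard error 0.29, limma adjusted p = 0.000588) in HG against NG, -3.29 (standard error 0.29, limma adjusted p = 6.98e-06) in si-FGF9 against NG and 1.94 (standard error 0.29, limma adjusted p = 0.00246) in HG+OE-FGF9 against HG. After GC correction it was -1.83, -2.43 and 2.00, and ATF3 remained a DEG in each. It was -0.38 (standard error 0.29, limma adjusted p = 0.262) in HG+OE-FGF9 against NG, a comparison added after the data were seen.

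NUPR1 and TRIB3 rose in HG+OE-FGF9. NUPR1 (ENSG00000176046, chromosome 16, 28532708 to 28539174), a small chromatin-associated stress protein, had 4.61, 2.12 and 2.77 TPM in the NG libraries, 1.56, 0.650 and 5.60 in the HG libraries, 3.76, 2.06 and 5.26 in the si-FGF9 libraries and 10.5, 9.48 and 10.2 in the HG+OE-FGF9 libraries. The HG+OE-FGF9 libraries were close to each other and above all others, while the HG libraries spread widely. The log2FC in HG+OE-FGF9 against HG was 1.86 (standard error 0.43, limma adjusted p = 0.021). TRIB3, a pseudokinase that binds ATF4 and limits its activity, was at 48.7 ± 0.934 TPM (SD, n = 3) in the NG libraries, 66.1 ± 8.49 in the HG libraries, 56.4 ± 15.3 in the si-FGF9 libraries and 152 ± 25.8 in the HG+OE-FGF9 libraries. It rose with a log2FC of 1.18 (standard error 0.19, limma adjusted p = 0.00361) over HG, and it had neither risen nor fallen in HG (0.43) or si-FGF9 (0.18). With the median of ratios TRIB3 rose in si-FGF9 against NG.

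DDIT3, which encodes the transcription factor CHOP, was no DEG in any comparison and had the widest spread of all members. Its TPM was 595, 480.1 and 485 in the NG libraries, 129, 110.2 and 1493 in the HG libraries, 1134, 1182 and 578 in the si-FGF9 libraries and 786, 779 and 561 in the HG+OE-FGF9 libraries. HG replicates 1 and 2 held the lowest values of all 12 libraries and HG replicate 3 the highest. The log2FC in HG+OE-FGF9 against HG was 1.33 (standard error 0.74, limma adjusted p = 0.255), and without HG replicate 3 it was 2.54 and DDIT3 was a DEG. In HG against NG it was -0.90 with all libraries and -2.11 without HG replicate 3. The last 982 bases of MARS1 overlap DDIT3 on the opposite strand of chromosome 12 (57516588 to 57517569), and the labels do not say that the counting used strand, so that reads there may have gone to either gene.

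The other transcription factors moved apart. CEBPG, a C/EBP protein that pairs with ATF4, fell in si-FGF9 (log2FC -1.48 (standard error 0.22, limma adjusted p = 9.03e-05)), as did JDP2, a Jun dimerization protein that represses AP-1 sites (-1.65 (standard error 0.21, limma adjusted p = 3.39e-05)). JDP2 was at 5.96 ± 0.533 TPM (SD, n = 3) in NG and 1.22 ± 0.121 in si-FGF9, and CEBPG at 21.9 ± 2.61 and 7.20 ± 0.810. With GC correction JDP2 stayed a DEG (-1.08) and CEBPG did not (-0.32). With the median of ratios or quantile normalization neither was a DEG in si-FGF9 against NG. CEBPB, a C/EBP protein of inflammation and differentiation, was no DEG in any comparison with the TPM as deposited. Its log2FCs ran from -0.07 in HG against NG to 0.53 in si-FGF9 against NG. With the median of ratios CEBPB rose in si-FGF9 against NG.

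**Figure D2:**
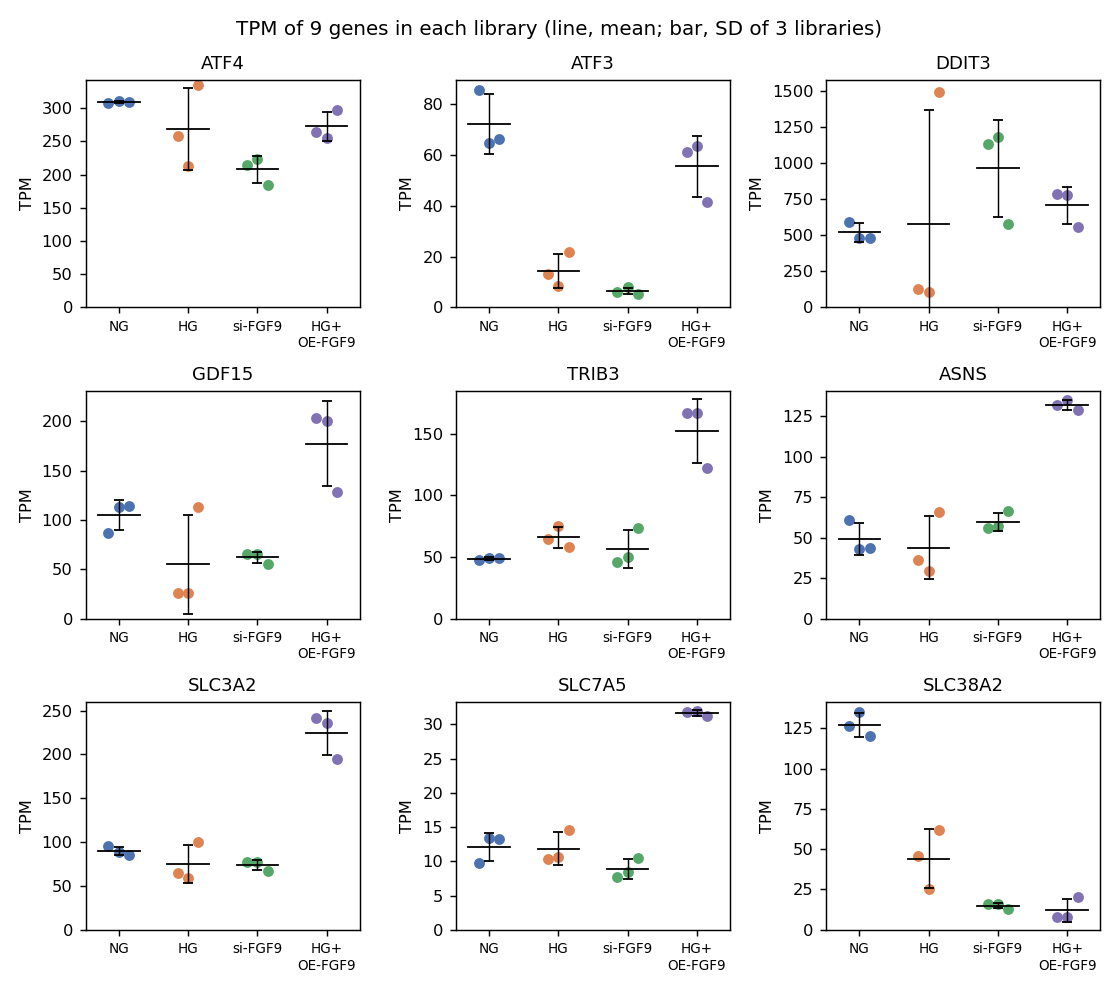
TPM of ATF4, ATF3, DDIT3, GDF15, TRIB3, ASNS, SLC3A2, SLC7A5 and SLC38A2 (y axes, linear from 0) in the libraries of the 4 groups (x axes), with points for single libraries, a horizontal line at the mean and a bar for 1 SD of 3 libraries, cut at 0 for DDIT3 in HG. The HG+OE-FGF9 points of TRIB3, ASNS, SLC3A2 and SLC7A5 lie above all points of the other groups, those of SLC38A2 lie at the bottom, and 1 HG library of DDIT3 stands at 1493 TPM against 129 and 110.2.

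Of the 4 feedback and effector genes, SESN2 rose in HG+OE-FGF9. With the TPM as deposited, none was a DEG in HG or si-FGF9 against NG. With the median of ratios DDIT4 rose in si-FGF9 against NG. SESN2, a leucine-binding inhibitor of mTORC1, was at 11.01 ± 1.14 TPM (SD, n = 3) in the NG libraries, 7.73 ± 1.34 in the HG libraries, 5.72 ± 3.24 in the si-FGF9 libraries and 18.7 ± 1.56 in the HG+OE-FGF9 libraries, with a log2FC of 1.19 (standard error 0.27, limma adjusted p = 0.0187) over HG. In si-FGF9, replicate 3 had 9.46 TPM against 3.83 and 3.88, and the log2FC against NG was -0.93 (standard error 0.27, limma adjusted p = 0.0082), with SESN2 a DEG without si-FGF9 replicate 3 (-1.30) or NG replicate 1 (-1.01). PPP1R15A, the phosphatase subunit that reverses the phosphorylation of eIF2, had 66.1, 59.7 and 311 TPM in HG and 192 ± 28.5 in HG+OE-FGF9, and its log2FC was 0.83 (standard error 0.50, limma adjusted p = 0.294) with all libraries and 1.59, as a DEG, without HG replicate 3. In HG against NG it was -1.22, and -1.98, as a DEG, without that library. CHAC1, an enzyme that degrades glutathione, was at 2.87 ± 1.85 TPM in HG and 4.98 ± 0.578 in HG+OE-FGF9 (log2FC 0.76). DDIT4, another inhibitor of mTORC1, had the opposite sign, with 276 ± 72.6 TPM in HG, 185 ± 0.777 in HG+OE-FGF9 and a log2FC of -0.55 (standard error 0.23, limma adjusted p = 0.141).

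With the TPM as deposited, none of the 6 enzymes of serine, glycine and one-carbon metabolism was a DEG in HG+OE-FGF9 against HG. All 6 log2FCs were above 0, from 0.20 to 0.94. PHGDH, the enzyme of the first step of serine synthesis, was at 90.6 ± 7.30 TPM (SD, n = 3) in the NG libraries, 98.95 ± 7.08 in the HG libraries, 96.96 ± 28.5 in the si-FGF9 libraries and 190.0 ± 12.3 in the HG+OE-FGF9 libraries. Its log2FC over HG, 0.94 (standard error 0.18, limma adjusted p = 0.00792), missed the minimum of 1. With the median of ratios PHGDH rose in this comparison. SHMT2, which makes glycine from serine in mitochondria, was at 120.0 ± 4.62 TPM in HG and 192 ± 14.6 in HG+OE-FGF9, with 0.67 (standard error 0.14, limma adjusted p = 0.0127). The other enzymes of serine synthesis, PSAT1 and PSPH, were at 0.48 and 0.20 and had larger adjusted p of 0.204 and 0.523 in limma.

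In the comparisons with NG, ALDH1L2 fell in HG and ALDH1L2, PSPH and MTHFD2 fell in si-FGF9. ALDH1L2 (ENSG00000136010, chromosome 12, 105019784 to 105084577), a mitochondrial formyltetrahydrofolate dehydrogenase, was at 9.32, 9.89 and 9.03 TPM in the NG libraries, 1.69, 1.17 and 4.05 in the HG libraries, 0.960, 1.70 and 0.860 in the si-FGF9 libraries and 2.80, 2.15 and 2.70 in the HG+OE-FGF9 libraries. The 3 NG libraries were above all others. The log2FC was -1.75 (standard error 0.28, limma adjusted p = 0.00104) in HG and -2.28 (standard error 0.28, limma adjusted p = 2.57e-05) in si-FGF9, and -0.87 and -0.90 after GC correction, where ALDH1L2 was no DEG. MTHFD2, its neighbour in mitochondrial folate metabolism, had 115 ± 2.76 TPM (SD, n = 3) in NG and 51.5 ± 7.63 in si-FGF9, and its log2FC of -1.15 became 0.30 with the correction. PSPH was at -1.26 and, with the correction, at -0.60.

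ASNS rose in HG+OE-FGF9 to a level that was even over its 3 libraries. ASNS (ENSG00000070669, chromosome 7, 97852118 to 97872542), which makes asparagine, was at 60.7, 43.1 and 43.5 TPM in the NG libraries, 36.1, 29.3 and 65.9 in the HG libraries, 55.9, 57.3 and 66.1 in the si-FGF9 libraries and 132, 135 and 129 in the HG+OE-FGF9 libraries. The HG+OE-FGF9 libraries were above every other library. The log2FC was 1.65 (standard error 0.25, limma adjusted p = 0.00246) over HG and 1.43 (standard error 0.25, limma adjusted p = 0.000368) over NG. In HG against NG and si-FGF9 against NG it was -0.23 and 0.29, and the latter became 1.13, a DEG, with GC correction.

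The enzymes of proline synthesis and transsulfuration showed no common direction. CTH, which makes cysteine from cystathionine, fell in si-FGF9 (-1.69 (standard error 0.34, limma adjusted p = 0.000725)), from 6.59 ± 0.847 TPM (SD, n = 3) in NG to 1.35 ± 0.168. In HG its libraries were at 2.19, 1.96 and 7.90 TPM and in HG+OE-FGF9 at 7.34, 8.12 and 7.87, which overlap, and its log2FC over HG was 1.00 (standard error 0.34, limma adjusted p = 0.0814) with all libraries and 1.51, as a DEG, without HG replicate 3. ALDH18A1, which starts proline synthesis, fell in si-FGF9 (-1.40 (standard error 0.17, limma adjusted p = 2.22e-05)) and in HG+OE-FGF9 against NG, at 30.7 ± 6.10 TPM against 71.3 ± 2.80 in NG and 46.9 ± 7.21 in HG. With GC correction, the median of ratios or quantile normalization, neither CTH nor ALDH18A1 was a DEG in si-FGF9 against NG. The same held for ALDH18A1 in HG+OE-FGF9 against NG. With the TPM as deposited, PYCR1, the last enzyme of proline synthesis, and CBS, the first of transsulfuration, were DEGs in no comparison. Their log2FCs over HG were 0.31 and 0.18 in HG+OE-FGF9. CBS rose in si-FGF9 against NG with the median of ratios or quantile normalization. PYCR1 rose in HG+OE-FGF9 against NG with the median of ratios.

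Among the 6 amino acid transporters, SLC3A2, SLC7A5 and SLC7A11 rose in HG+OE-FGF9 and SLC38A2 fell. SLC3A2 (ENSG00000168003, chromosome 11, 62856102 to 62888875) is the heavy chain shared by the light chains SLC7A5 and SLC7A11. Its TPM was 95.1, 89.2 and 85.5 in the NG libraries, 65.1, 59.5 and 99.7 in the HG libraries, 77.03, 76.95 and 67.3 in the si-FGF9 libraries and 242, 236 and 195 in the HG+OE-FGF9 libraries. The lowest HG+OE-FGF9 library was above the highest of the other groups, HG replicate 3, and the log2FC over HG was 1.60 (standard error 0.18, limma adjusted p = 0.000467). It had the smallest adjusted p of the 43 members in this comparison.

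Both light chains rose with the heavy chain. SLC7A5, which carries large neutral amino acids, was at 10.3, 10.6 and 14.6 TPM in HG and 31.7, 31.97 and 31.2 in HG+OE-FGF9, with 12.1 ± 2.06 (SD, n = 3) in NG and 8.88 ± 1.47 in si-FGF9. The log2FC over HG was 1.36 (standard error 0.19, limma adjusted p = 0.00132). SLC7A11, which takes up cystine in exchange for glutamate, was low in all groups, at 0.590, 0.280 and 1.40 TPM in HG and 3.35, 3.39 and 1.56 in HG+OE-FGF9. Its log2FC over HG was 1.11 (standard error 0.25, limma adjusted p = 0.0194). SLC7A11 was no DEG without HG replicate 2, HG+OE-FGF9 replicate 1 or HG+OE-FGF9 replicate 2, with values from 0.90 to 1.36 over the libraries left out in turn.

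SLC38A2 (ENSG00000134294, chromosome 12, 46358189 to 46372867), a sodium-coupled carrier of small neutral amino acids that cells normally induce when these are short, went the other way. Its TPM was 127, 135 and 120.2 in the NG libraries, 45.5, 25.4 and 61.8 in the HG libraries, 15.9, 15.9 and 13.03 in the si-FGF9 libraries and 8.03, 8.02 and 20.02 in the HG+OE-FGF9 libraries. NG was above HG, and HG above both other groups, with no overlap between NG, HG and either of them. The log2FC was -1.59 (standard error 0.34, limma adjusted p = 0.00324) in HG against NG, -3.01 (standard error 0.34, limma adjusted p = 1.78e-05) in si-FGF9 against NG and -1.83 (standard error 0.34, limma adjusted p = 0.0077) in HG+OE-FGF9 against HG. Its longest transcript has a GC content of 38.1%. With GC correction the values were -0.49, -1.37 and -1.50, and only the first no longer made a DEG. The remaining transporters are SLC1A5, a carrier of glutamine, and SLC7A1, of cationic amino acids. With the TPM as deposited they were DEGs in no comparison, at 0.53 and 0.24 over HG in HG+OE-FGF9. SLC1A5 rose in HG+OE-FGF9 against NG with the median of ratios or quantile normalization.

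The 10 aminoacyl-tRNA synthetases load amino acids onto tRNA, and XPOT exports tRNA from the nucleus. With the TPM as deposited, none of these 11 genes was a DEG in HG+OE-FGF9 against HG. With the median of ratios MARS1 rose. The median log2FC of these 11 genes was 0.40, with 7 above 0. The adjusted p was under 0.05 for 4 of them, MARS1 (0.87), YARS1 (0.75), SARS1 (0.73) and WARS1 (0.54). MARS1 was at 149 ± 7.88 TPM (SD, n = 3) in HG and 273 ± 17.6 in HG+OE-FGF9, with the limit that it overlaps DDIT3, and SARS1 at 92.5 ± 4.83 and 154 ± 1.75. AARS1, at 0.74, had 29.1, 28.00 and 70.9 TPM in HG, where replicate 3 lay within the range of HG+OE-FGF9. GARS1, CARS1, TARS1, EPRS1 and NARS1 had log2FCs between -0.12 and 0.40.

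Against NG, XPOT and NARS1 fell in both comparisons, and GARS1 and WARS1 in si-FGF9. XPOT (ENSG00000184575, chromosome 12, 64404350 to 64451127) was at 83.3, 89.4 and 72.99 TPM in the NG libraries, 22.2, 12.6 and 39.3 in the HG libraries, 14.2, 15.4 and 9.73 in the si-FGF9 libraries and 14.99, 15.1 and 26.03 in the HG+OE-FGF9 libraries. The log2FC was -1.82 (standard error 0.34, limma adjusted p = 0.00185) in HG and -2.58 (standard error 0.34, limma adjusted p = 4.28e-05) in si-FGF9, and -0.84 and -1.07 with GC correction, where XPOT was a DEG in si-FGF9 alone. NARS1 (ENSG00000134440, chromosome 18, 57600656 to 57622213), the asparaginyl-tRNA synthetase, was at 81.3, 71.9 and 70.9 TPM in the NG libraries, 29.3, 15.2 and 47.1 in the HG libraries, 15.4, 17.4 and 11.5 in the si-FGF9 libraries and 23.3, 22.7 and 38.00 in the HG+OE-FGF9 libraries. For both genes the NG libraries were above all others. The log2FC of NARS1 was -1.40 (standard error 0.33, limma adjusted p = 0.0053) in HG and -2.28 (standard error 0.33, limma adjusted p = 7.88e-05) in si-FGF9, and -0.71 and -1.16 with the correction. Without HG replicate 2 the value in HG was -0.98, and NARS1 was no DEG. GARS1 and WARS1 were at -1.25 and -1.08 in si-FGF9 and at -0.52 and -0.53 with the correction, where they were no DEGs.

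The 3 secreted and surface proteins were all DEGs in HG+OE-FGF9 against HG, 2 higher and 1 lower. GDF15 (ENSG00000130513, chromosome 19, 18374731 to 18389176), a circulating factor of the TGF-β superfamily that cells release under stress, had the largest log2FC of the 43 members in this comparison. Its TPM was 87.1, 113 and 114 in the NG libraries, 26.1, 26.2 and 113 in the HG libraries, 65.6, 65.3 and 55.9 in the si-FGF9 libraries and 204, 200.4 and 128 in the HG+OE-FGF9 libraries. HG replicate 3 was near the NG libraries and only a little below the lowest HG+OE-FGF9 library. The log2FC over HG was 1.99 (standard error 0.44, limma adjusted p = 0.0164), with values from 1.65 to 2.68 over the libraries left out in turn.

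STC2 (ENSG00000113739, chromosome 5, 173314713 to 173329503), a secreted glycoprotein that the unfolded protein response induces, fell in HG and si-FGF9 and rose in HG+OE-FGF9. Its TPM was 123, 141 and 141 in the NG libraries, 45.6, 36.2 and 96.8 in the HG libraries, 44.8, 45.8 and 38.8 in the si-FGF9 libraries and 117, 122 and 111 in the HG+OE-FGF9 libraries. The HG and HG+OE-FGF9 libraries did not overlap, though HG replicate 3 was again closest to the other group. The log2FCs were -1.30 (standard error 0.27, limma adjusted p = 0.0029), -1.62 (standard error 0.27, limma adjusted p = 0.000204) and 1.09 (standard error 0.27, limma adjusted p = 0.0281) in the comparisons HG against NG, si-FGF9 against NG and HG+OE-FGF9 against HG. STC2 was no DEG in the last of these without HG replicate 1 or HG replicate 2, with a lowest value of 0.80.

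VLDLR (ENSG00000147852, chromosome 9, 2621834 to 2660053), a receptor that takes up lipoproteins rich in triglyceride, fell in all 3 comparisons. Its TPM was 139.7, 113 and 111 in the NG libraries, 62.1, 37.8 and 49.9 in the HG libraries, 21.7, 22.7 and 18.1 in the si-FGF9 libraries and 12.3, 13.5 and 23.3 in the HG+OE-FGF9 libraries. NG was above HG and HG above both other groups without overlap, as for SLC38A2. The log2FC was -1.28 (standard error 0.24, limma adjusted p = 0.00182) in HG against NG, -2.48 (standard error 0.24, limma adjusted p = 8.77e-06) in si-FGF9 against NG and -1.58 (standard error 0.24, limma adjusted p = 0.00279) in HG+OE-FGF9 against HG, and -0.44, -1.16 and -1.36 after GC correction.

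**Figure D3:**
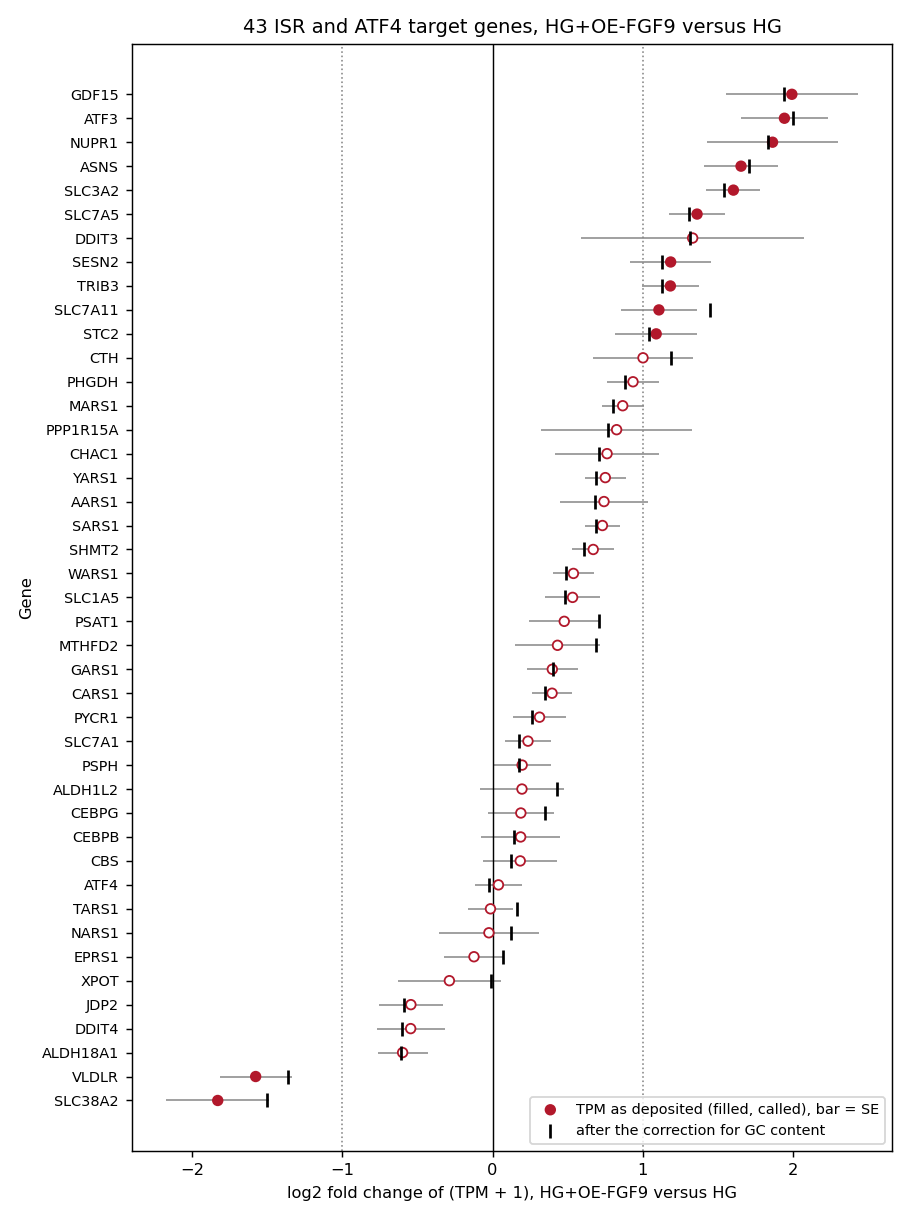
log2FC of (TPM + 1) in HG+OE-FGF9 against HG (x axis) for the 43 genes (y axis, in order of the change), with points for the TPM as deposited, filled for DEGs, bars for the standard error, black marks for the value after GC correction and dotted lines at -1 and 1. GDF15, ATF3 and NUPR1 lie between 1.86 and 1.99, ATF4 at 0.04, and SLC38A2 and VLDLR at -1.83 and -1.58.

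A comparison of HG+OE-FGF9 with NG, added after the data were seen, gives the level of the members against normal glucose. In it 8 members rose (TRIB3, NUPR1, ASNS, SLC7A5, SLC3A2, CHAC1, PHGDH and MARS1) and 6 fell (SLC38A2, VLDLR, XPOT, ALDH1L2, NARS1 and ALDH18A1). Over all genes 39.7% were DEGs, 7.01% higher and 32.7% lower, against 32.6%, 18.6% and 14% of the members. The log2FC was 1.61 (standard error 0.19, limma adjusted p = 5e-05) for TRIB3 and 1.33 (standard error 0.19, limma adjusted p = 0.000104) for SLC7A5. ATF3, GDF15 and STC2, which had risen over HG, were at -0.38, 0.73 and -0.21 relative to NG and were no DEGs. The split of 8 and 6 was 10 and 2 with GC correction (11.3% higher and 11.8% lower among all genes), 15 and 3 with the median of ratios (17.8% and 16.9%) and 10 and 4 with quantile normalization (15.6% and 17.3%). CHAC1, MARS1 and NUPR1 lost their call when single libraries were left out.

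Single libraries weighed on the counts. Without HG replicate 3, 14 of the 43 members (32.6%) fell in HG against NG. Among all genes tested 32.6% were then DEGs in either direction, so that the members did not exceed this background. In HG+OE-FGF9 against HG, 16 members were DEGs without that library, beside 6.81% of all genes. When the closest pair of libraries in each group was averaged into 1, since NG replicates 2 and 3 and HG+OE-FGF9 replicates 1 and 2 were very alike, 7 members were DEGs in HG+OE-FGF9 against HG (ATF3, ASNS, SLC3A2, SLC7A5, TRIB3, SLC38A2 and VLDLR), against 3.1% of all genes. In this setting GDF15, NUPR1, SESN2, SLC7A11 and STC2 were no longer called. Across the study's 3 comparisons, with all libraries and the TPM as deposited, 20 of the 43 members were DEGs in none. The other 23 (53.5%) were DEGs in at least 1, beside 51.9% of all genes tested.

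The other genes of the pathway were counted from lists of 55 symbols, of which 52 were tested (FGF21, ADM2 and MARS2 did not pass the filter). In HG+OE-FGF9 against HG, 2 of the 52 (3.85%) rose and 0 fell, near the 2.94% and 2.67% of all genes, and the median log2FC was -0.09. Both are further ATF4 targets. PCK2, the mitochondrial phosphoenolpyruvate carboxykinase, was at 13.9, 14.7 and 13.7 TPM in HG and 28.04, 28.2 and 34.3 in HG+OE-FGF9, with a log2FC of 1.04 (standard error 0.19, limma adjusted p = 0.00703). INHBE, a subunit of activin E, was at 5.89, 5.53 and 18.3 and 18.99, 20.1 and 23.8 TPM, with 1.20 (standard error 0.33, limma adjusted p = 0.0423), and HG replicate 3 was near the HG+OE-FGF9 libraries. With GC correction only 1 of the 52 (1.92%) rose and 0 fell, beside 3.03% and 2.18% of all genes. PCK2 and INHBE were thus not both DEGs with this correction. The 8 further ATF4 targets tested had a median log2FC of 0.73, while the 4 eIF2 kinases were at -0.48, the 16 mitochondrial tRNA synthetases at -0.30, the 6 regulators of the eIF2 pathway at -0.20, the 10 other cytosolic tRNA synthetases at 0.07 and the 8 eIF2 and eIF2B subunits at 0.20.

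Against NG, 15 of the 52 (28.8%) fell in HG and 25 (48.1%) in si-FGF9, near the 22.7% and 42.2% of all genes that were lower. In si-FGF9, QARS1, the glutaminyl-tRNA synthetase, rose (1.04 (standard error 0.14, limma adjusted p = 4.93e-05)). Of the kinases, EIF2AK3 (PERK, the sensor in the endoplasmic reticulum) and EIF2AK2 (PKR, the sensor of viral RNA) fell in both, with log2FCs of -1.21 in HG and -2.34 in si-FGF9 for EIF2AK3 and of -1.09 and -2.00 for EIF2AK2. PPP1R15B, the constitutive phosphatase subunit for eIF2, fell by 2.01 in HG and 2.65 in si-FGF9 on the log2 scale, and OMA1, a mitochondrial protease that relays stress to the ISR, was at -1.12 and -1.76. Among the eIF2 subunits the largest decreases were in EIF2S3 (-1.24) and EIF2S1 (-1.08) in HG and in EIF2S1 (-2.13) and EIF2S3 (-1.56) in si-FGF9.

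The further targets and tRNA synthetases gave like values. KLHL24 was at -1.86 in HG and -1.84 in si-FGF9, and NIBAN1 at -1.20 and -1.37. Of the cytosolic synthetases, LARS1 was at -1.20 in HG and -1.62 in si-FGF9, and IARS1 at -1.16 and -2.16. Of the mitochondrial ones, IARS2 and NARS2 fell most in both (-1.27 and -1.10 in HG, -1.91 and -2.07 in si-FGF9). With GC correction, PPP1R15B was the 1 gene of the 52 that still fell in HG, beside 3.06% of all genes, and in si-FGF9 4 fell and 4 rose (7.69% each), beside 12% and 12.3% of all genes.

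**Figure D4:**
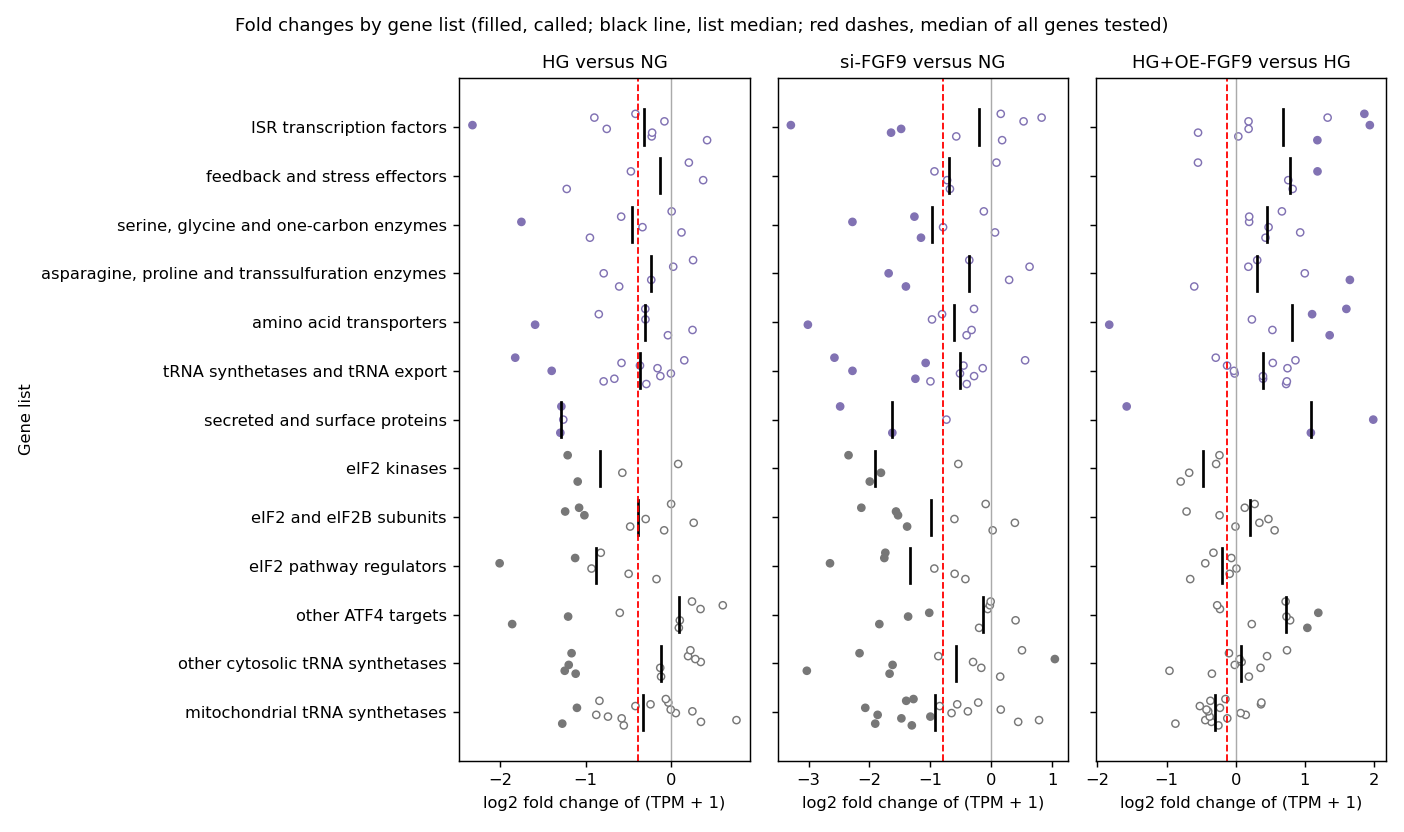
log2FC of (TPM + 1) (x axes) of each gene in 7 member groups (purple) and 6 lists of other pathway genes (grey), by list (y axis), in the comparisons HG against NG, si-FGF9 against NG and HG+OE-FGF9 against HG, with filled points for DEGs, a black line at the median of the list and a red dashed line at the median of all genes tested. In HG+OE-FGF9 against HG the medians of the 7 member groups lie between 0.31 and 1.09, right of the -0.13 of all genes, and those of the eIF2 kinases, eIF2 pathway regulators and mitochondrial tRNA synthetases left of it.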

How the data were processed

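RNA of 12 HK2 libraries, 3 for each of 4 groups, was analysed as the TPM deposited by the authors, given to 2 decimals for 62703 Ensembl genes and scaled to 1000000 per library. The submitters' processing notes name Bowtie 0.12.2 and the genome build mm8, a mouse build, with no role, although the identifiers are human. The quantification tool and the annotation are not given in the sources used here. Samples were grouped by their titles. The tests were those of limma (3.58.1, under R 4.3.3) on log2(TPM + 1) values and with a variance trend, with all 12 libraries in one fit and the group as its only term, for the genes that reached 1 TPM in at least 3 libraries. As in the paper, DEGs had an absolute log2 fold change of at least 1 and an unadjusted p under 0.01. In simulated data for HG against NG, 96.5% of 200 changed genes among 14639 and 0.263% of the others were called. The planted changes all exceeded the minimum of 1, and the noise was normal and independent between genes and libraries. No overall shift, GC trend or likeness between libraries was simulated, so that these shares check the code and are not error rates of the calls reported here.

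The members and lists were chosen with earlier results of these data known. Every library is given for ATF4 and, in each of the 3 comparisons, for the 6 members with the largest fold changes, and for DDIT3, SLC7A5 and some others chosen after their values were seen. Of the other pathway lists, each DEG in HG+OE-FGF9 against HG and the 2 largest fold changes of each list in the other comparisons are named, save 1 gene that is not reported here. The alternatives were other thresholds, filters, scalings and a pseudocount of 0.1, the 6 libraries of a comparison alone, no variance trend, a replicate block, each library left out, and the subtraction from each library of a natural spline with 5 degrees of freedom on the GC content of the longest transcript in GENCODE release 29 (known for 96.9% of the genes tested). The average of the closest pair of libraries and HG+OE-FGF9 against NG were added after the data were seen. GENCODE 29 and RefSeq are on GRCh38, which may not be the build of the authors. TPM hold no depth, so that no count test or counting interval was possible.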

Additional observations from a re-analysis of the deposited data

How the results depend on the processing

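Of the log2FCs of members under the alternatives, pooled over all settings, 2913 kept their sign and their side of the threshold. With the sign kept, 93 lost and 59 gained a call. A further 185 changed sign with no call in either setting, and 2 changed sign with a call in at least 1. These last 2 were both in MTHFD2 in si-FGF9 against NG, at 0.30 with GC correction alone and 0.30 with the replicate block added. The other thresholds and the fit without a variance trend use the same log2FCs, so that no sign could change there. Without the trend 172 were the same, against 95 with the median of ratios, 119 with GC correction and 130 with quantile normalization. The number of members that were DEGs in HG against NG, 7, became 4 with the median of ratios, 3 with GC correction and 2 with this correction and the replicate block. In si-FGF9 against NG, 15 became 8 with quantile normalization, 8 with the correction and 8 with the correction and the block. In HG+OE-FGF9 against HG, 12 became 7 with the closest pair of each group averaged. By construction, GC correction also takes out the overall shift between libraries, and the cause of the other changes was not tested. With 1 library left out in turn the numbers were 6 to 14 in HG against NG, where 14 was without HG replicate 3, 15 to 18 in si-FGF9 against NG, 11 to 16 in HG+OE-FGF9 against HG and 11 to 13 in HG+OE-FGF9 against NG. Without HG replicate 3, 32.6% of all genes were DEGs in HG against NG and 6.81% in HG+OE-FGF9 against HG. For the other libraries left out the share of all genes is not given here, so these numbers describe no excess of the members.

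Libraries with the same number did not deviate together, with correlations from -0.44 to 0.25 and 3 of 18 over 0.1, so that the numbers do not pair the libraries. With the replicate number as a block, 7, 15, 13 and 13 members were DEGs in these 4 comparisons, in the same order. The share of all genes with the block is not given here, so these counts are not read against it.

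The depth of the libraries is unknown, so that the share of counting error in the spread between libraries at low TPM, as in SLC7A11 and CHAC1, is not known. With 3 libraries a group, 1 library can decide a call, and a gene that missed the criteria is not shown to be unchanged. TPM are relative to all RNA of a library, so that a change in other RNA moves every value.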
